A study of Homo sapiens with 4 samples.

Results

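The integrins and focal adhesion proteins described here are 39 genes chosen by name: 13 alpha subunits and 8 beta subunits of integrins, and 18 proteins that connect integrins to actin or signal from them. Of these, 38 were found among the 36359 genes of the count table, and ITGA8 was not analysed here. The cells were ACHN, a human line derived from renal cell carcinoma. They were transfected by lipofection, and RNA was sequenced from 2 libraries with a control siRNA (siNC) and 2 with an siRNA against PRR11 (siPRR11). All 4 libraries came from the same line grown in MEM with fetal bovine serum. Neither the time between transfection and harvest nor the duplex given to each siPRR11 library is stated for these libraries. The labels do not say whether the libraries of a group came from separate cultures, so p-values measure only the spread between these libraries, which may be technical. The comparison asks how the RNA of these genes differed after silencing of PRR11, a proline-rich protein linked to cell division.

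Integrins are receptors for the extracellular matrix and for ligands on other cells. Each is a pair of 1 alpha and 1 beta subunit, and the pairing decides which ligand is bound: beta1 joins most alpha chains, whereas the alphav chain can join any of several beta chains. Inside the cell, talin and kindlin bind the beta tail and switch the receptor on, while vinculin, alpha-actinin, zyxin and the ILK-PINCH-parvin complex link it to actin. Focal adhesion kinase, SRC, paxillin and p130Cas pass the signal on.

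PRR11 was at 41.3 and 40.4 CPM (read counts scaled to library size with edgeR's TMM factors) in the siNC libraries and at 15.3 and 14.02 CPM in the siPRR11 libraries. The libraries held between 59003839 and 92612749 counted reads, and the 38 genes took 0.700% to 0.776% of them. All 7 markers of renal carcinoma cells were detected, with PAX8 between 253 and 375 CPM and KRT8 between 1169 and 1498 CPM. The leukocyte genes PTPRC and CD3E had at most 4 reads in any library. Of the endothelial genes CDH5, PECAM1, TEK and VWF had at most 4, 8, 20 and 30 reads, each highest in a siPRR11 library. The fibroblast genes LUM and DCN had at most 4 reads and PDGFRA at most 54, whereas ACTA2 was between 18.5 and 21.6 CPM.

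Of the 38 genes, 14 passed an adjusted p of 0.05 in edgeR's quasi-likelihood test, adjusted by Benjamini-Hochberg across the 21630 genes tested. That is 36.8%, beside 16.7% of all genes tested. The genes were chosen with earlier results of these data known, so this difference is descriptive only. In siPRR11, 6 rose and 8 fell, beside 7.61% and 9.14% of all genes. Most of the 38 are well expressed, and abundant genes pass more often: 12 of the 31 whose average log2 CPM reached 4 passed, whereas 26.9% of all genes at that level did. Integrin subunits supplied 10 of the 14, with 4 higher and 6 lower of 20 measured, and the adaptor and signaling proteins supplied 4 of 18. Of the 8 beta subunits 6 passed, with 3 in each direction. The median log2 fold change of the 38 was -0.06, close to the 0.00 of all genes, and the median size of their changes was 0.20 beside 0.22. The siNC and siPRR11 values did not overlap for 29 of the 38, against 58.4% of all genes. The plot of fold changes shows the genes by role.

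**Figure D1:**
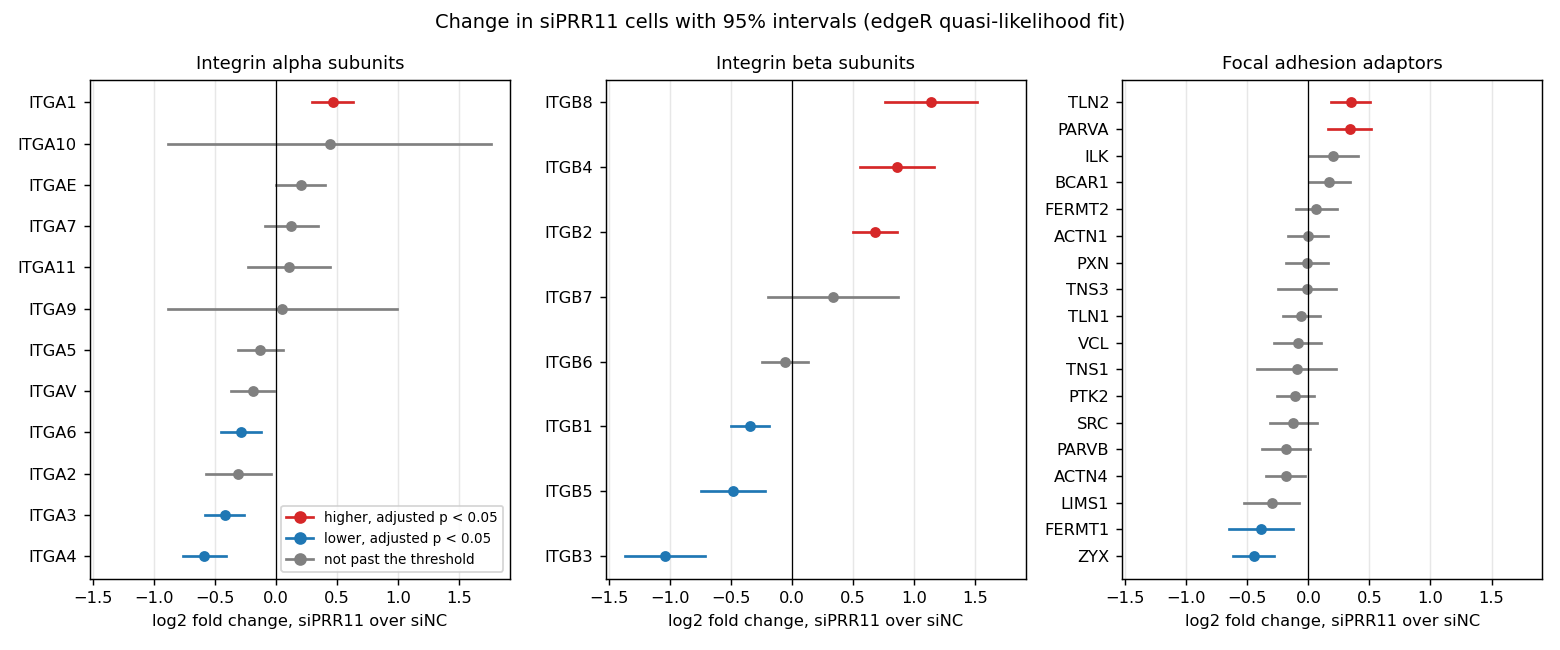
Log2 fold change of siPRR11 over siNC (horizontal axis) for each of the 38 genes, grouped as alpha subunits, beta subunits and adaptors. Bars are 95% intervals from edgeR's quasi-likelihood fit and red (higher) or blue (lower) points passed the adjusted p of 0.05. ITGB8 at 1.14 and ITGB3 at -1.04 lie at the ends, and 14 of the 18 adaptors are grey because they did not pass.

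Levels between genes are compared here as RPKM, read counts scaled by exonic length and by the library total. The beta subunit with the highest level was ITGB1, the shared partner of most alpha chains, at a mean of 232 RPKM in siNC. ITGB5 at 14.8 and ITGB3 at 11.4 RPKM came next, and their siNC libraries overlapped, with 12.8 and 16.8 for ITGB5 and 9.24 and 13.6 for ITGB3. ITGB6 was at 7.99, ITGB4 at 5.76 and ITGB2 at 4.22 RPKM, and ITGB7 and ITGB8 were near 0.26 RPKM. Among alpha subunits ITGA3, which forms the laminin receptor alpha3beta1, led at 92.0 RPKM, followed by ITGAV at 17.7, ITGA4 at 12.4 and ITGA6 at 11.8 RPKM. The ITGA4 and ITGA6 values overlapped between the siNC libraries. ITGA5, the alpha chain of the classical fibronectin receptor, was at 7.63 RPKM. ITGA1, ITGAE, ITGA7 and ITGA11 lay between 1.84 and 3.08, ITGA2 at 0.899, and ITGA9 and ITGA10 under 0.04 RPKM. Among the adaptors ACTN4, at 259.6 RPKM, and ACTN1, at 95.2 RPKM, were highest, ahead of TLN1 at 52.4 and VCL at 33.9 RPKM, and FERMT1 was lowest at 1.59 RPKM.

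**Figure D2:**
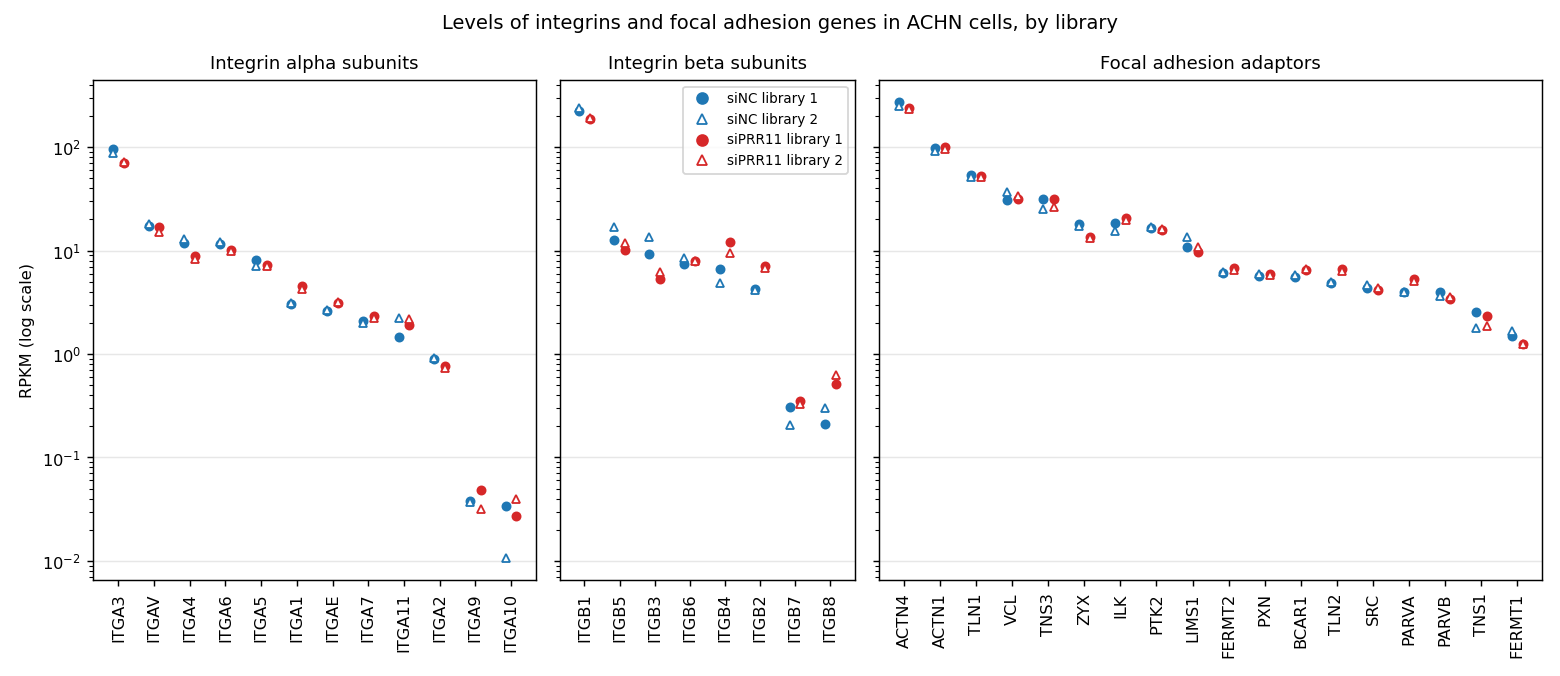
RPKM of each of the 38 genes in each library on a log axis, with siNC in blue, siPRR11 in red, circles for library 1 and triangles for library 2. ITGB1 and ACTN4 are above 180 RPKM in every library, and ITGA9 and ITGA10 are below 0.05 RPKM in every library.

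The most abundant chains fell. ITGB1 was at 1382 and 1455 CPM in siNC and at 1100 and 1137 CPM in siPRR11, a log2 fold change of -0.34 (SE 0.0708, adjusted p = 0.0066, edgeR's quasi-likelihood test). ITGA3 had 955 and 879 CPM in siNC and 680.1 and 689.9 CPM in siPRR11 (-0.42, SE 0.0729, adjusted p = 0.0024). In both genes each siPRR11 library lay below each siNC library, and the fitted level was 0.788-fold and 0.747-fold of the control. ITGB1 did not pass when limma was run on log2 RPKM instead of counts (adjusted p = 0.057 with a pseudocount of 1), whereas ITGA3 did. The ITGB1 pseudogene ITGB1P1 had 678 to 855 reads per library, and how the counting divided reads between it and ITGB1 is not stated.

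ITGA4 and ITGA6 fell with them. ITGA4, whose alpha4beta1 receptor binds VCAM1 and fibronectin, went from 94.9 and 104.8 CPM to 68.1 and 64.9 CPM (-0.59, SE 0.0800, adjusted p = 0.000595, edgeR's quasi-likelihood test). This was the largest fall among the alpha subunits. ITGA6, the alpha chain shared by the laminin receptors alpha6beta1 and alpha6beta4, went from 76.8 and 79.8 CPM to 64.6 and 63.9 CPM (-0.28, SE 0.0745, adjusted p = 0.022, edgeR). The ITGA6 call was lost when either siPRR11 library was left out (adjusted p = 0.151 and 0.179, edgeR).

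ITGA1, the alpha chain of the collagen receptor alpha1beta1, was the only alpha subunit of the 12 that rose. It was at 57.0 and 59.2 CPM in siNC and at 82.7 and 77.5 CPM in siPRR11 (0.46, SE 0.0773, adjusted p = 0.00197, edgeR's quasi-likelihood test). The other classical collagen-binding chain of epithelial cells, ITGA2, was at 7.16 and 7.31 CPM and at 5.99 and 5.68 CPM, and did not pass (-0.31, adjusted p = 0.107, edgeR). The ratio of ITGA1 to ITGA2 in RPKM was 3.39 and 3.45 in siNC and 5.88 and 5.81 in siPRR11, so it was 1.71-fold higher. The genes lie on the same strand of chromosome 5, in the GRCh38 coordinates of the count table: ITGA1 at chr5:52787896-52959210 and ITGA2 at chr5:52989326-53094779, with 30116 bases between them. Other genes on the same strand share 5.6% of the exonic bases of ITGA1, of which PELO covers 2.6%.

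The bases just upstream of these neighbours are shown because the genes lie side by side and ITGA1 rose while ITGA2 did not pass. With them are those of ITGB8 and ITGB5, partners of alphav that moved in opposite directions. The sequences are from RefSeq (GRCh38), read 5′ to 3′ on the gene's strand, and end where the first exon of the count table starts. Capitals mark matches to GGGCGG, the core of the GC box bound by SP1, on either strand. The stretches are chr5:52787666-52787895 (plus) for ITGA1, chr5:52989102-52989325 (plus) for ITGA2, chr7:20330650-20330701 (plus) for ITGB8 and chr3:124901419-124901668 (minus) for ITGB5.
ITGA1: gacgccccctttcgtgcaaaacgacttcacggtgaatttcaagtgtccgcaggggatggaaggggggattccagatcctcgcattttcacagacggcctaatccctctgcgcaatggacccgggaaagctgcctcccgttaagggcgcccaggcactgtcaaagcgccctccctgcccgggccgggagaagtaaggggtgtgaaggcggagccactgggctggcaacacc
ITGA2: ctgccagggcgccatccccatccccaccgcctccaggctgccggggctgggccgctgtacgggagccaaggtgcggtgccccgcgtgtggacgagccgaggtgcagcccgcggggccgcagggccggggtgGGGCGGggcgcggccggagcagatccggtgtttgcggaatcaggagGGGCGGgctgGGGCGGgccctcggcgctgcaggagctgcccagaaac
ITGB8: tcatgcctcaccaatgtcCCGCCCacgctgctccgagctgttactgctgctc
ITGB5: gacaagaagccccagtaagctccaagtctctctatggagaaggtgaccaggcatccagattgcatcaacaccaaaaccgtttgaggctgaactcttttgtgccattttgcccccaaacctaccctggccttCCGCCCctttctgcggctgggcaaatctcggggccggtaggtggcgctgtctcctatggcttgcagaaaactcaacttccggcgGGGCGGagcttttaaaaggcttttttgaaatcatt

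The ITGA1 stretch held no match in 230 bases and had a GC content of 61.7%, whereas the ITGA2 stretch held 3 matches in 224 bases at 77.2% GC. The ITGB8 stretch held 1 match in 52 bases and the ITGB5 stretch 2 in 250 bases. Over an equal length, the 250 bases before the RefSeq start, both genes had 2 matches. RefSeq promoters were matched for 28 of the 38 genes. In the 250 bases before the RefSeq start, GGGCGG occurred in 16 of these 28 and in 42.6% of 35116 promoters, and in 1 of 3 matched genes that rose and 3 of 5 that fell. The other motifs searched on both strands were TGANTCA (AP-1) in 2 of 28 beside 6.6% of all promoters, GGAATG (TEAD) in 4 beside 11.9%, and TATAAA, a core promoter element, in 1 beside 10.7%. Median GC content was 71.2% in the 28 and 58.0% in all promoters. A match is a run of letters and not a binding site.

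The partners of alphav moved apart. ITGB8, which with alphav binds latent TGF-beta, was at 3.24 and 4.61 CPM in siNC and at 7.70 and 9.40 CPM in siPRR11 (1.14, SE 0.172, adjusted p = 0.0011, edgeR's quasi-likelihood test). ITGB3, which with alphav binds vitronectin and osteopontin, was at 41.3 and 60.7 CPM in siNC and at 22.8 and 26.6 CPM in siPRR11 (-1.04, SE 0.150, adjusted p = 0.000805, edgeR). Neither gene's groups overlapped, but the siNC libraries differed from each other by 1.47-fold for ITGB3 and 1.42-fold for ITGB8. ITGB5, another vitronectin-binding chain, was at 83.7 and 110.2 CPM in siNC and at 63.6 and 75.0 CPM in siPRR11 (-0.48, SE 0.120, adjusted p = 0.0173, edgeR). In all 3 genes replicate 2 had the higher value in siNC and also in siPRR11. The log2 fold change of ITGB5 was -0.28 without siNC replicate 2, and that of ITGB3 was -0.74. ITGB5 did not pass with limma on log2 RPKM (adjusted p = 0.145 with a pseudocount of 1).

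ITGB6, the epithelial alphav partner, was at 48.4 and 55.0 CPM in siNC and at 49.9 and 49.4 CPM in siPRR11 and did not pass (-0.06, 95% interval -0.24 to 0.13). ITGAV itself was at 144.7 and 150.6 CPM and at 136.8 and 121.7 CPM (-0.19, interval -0.36 to -0.02, adjusted p = 0.126, edgeR). Of the alphav partners, then, ITGB8 rose, ITGB1, ITGB3 and ITGB5 fell, and ITGB6 did not pass. In RPKM the ratio of ITGB8 to ITGB3 was 0.0228 and 0.0220 in siNC and 0.0979 and 0.102 in siPRR11, 4.48-fold higher. These genes had the largest rise and fall of the 38 and were paired after values were seen, so a large ratio followed from the choice. Its two-sided exact permutation p was 0.3333, the smallest that 2 against 2 libraries can give. In siPRR11 ITGB8 was still the less abundant of the pair. On the log2(RPKM + 1) scale, which compresses low genes, the ITGB8 difference was 0.33.

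The reads of ITGB3 carry a limit. Of its exonic bases in the file, 51.6% are shared with RP11-290H9.2 on the same strand, which fell by 0.91 on the log2 scale (adjusted p = 0.00128, edgeR). The counts of the 2 genes in those bases cannot be told apart.

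ITGB4, the partner of alpha6 in hemidesmosomes, rose while ITGA6 fell. It was at 45.8 and 33.5 CPM in siNC and at 80.5 and 63.4 CPM in siPRR11 (0.86, SE 0.140, adjusted p = 0.00172, edgeR's quasi-likelihood test). The groups did not overlap although the libraries within each group differed, and the log2 fold change ran from 0.65 to 1.10 when 1 library at a time was left out. The RPKM ratio of ITGB4 to ITGA6 was 0.576 and 0.405 in siNC and 1.20 and 0.959 in siPRR11, which is 2.20-fold higher. ITGA3, another laminin-binding alpha chain, had a ratio to ITGA6 of 8.28 and 7.34 in siNC and 7.01 and 7.19 in siPRR11.

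ITGB2, known as the beta chain of leukocyte integrins, was detected in these cells and rose. It was at 29.6 and 28.7 CPM in siNC and at 47.4 and 45.9 CPM in siPRR11 (0.68, SE 0.0819, adjusted p = 0.000284, edgeR's quasi-likelihood test), with libraries close together within each group. Of its alpha partners ITGAM was at a mean of 0.730 RPKM in siNC beside 4.22 RPKM for ITGB2. The siNC means of ITGAL, ITGAX and ITGAD were at most 0.0422 RPKM. ITGAM also passed (0.43, adjusted p = 0.0446, edgeR), but not with DESeq2, with limma, or without any 1 library. PTPRC, the defining leukocyte gene, had 0, 4, 4 and 2 reads in the libraries, where a count of 0 allows up to 0.0367 CPM. CD68, a macrophage marker found in many other cells too, was between 45.2 and 60.1 CPM in the 4 libraries. The antisense gene ITGB2-AS1 covers 4.5% of the exonic bases of ITGB2 and was higher as well (0.45, adjusted p = 0.0328, edgeR). As the use of strand in counting is not given in the sources used here, reads of overlapping genes on opposite strands may be mixed.

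Summed over the 8 beta subunits, RPKM was 267.2 and 286.3 in siNC and 229.6 and 235.1 in siPRR11. Leaving out ITGB1, they were 41.0 and 48.4 for siNC and 43.4 and 43.2 for siPRR11, which overlap. ITGB1 took 84.7% and 83.1% of the beta sum in siNC and 81.1% and 81.6% in siPRR11. The mean share of ITGB4 went from 2.10% to 4.66%, that of ITGB2 from 1.526% to 3.001% and that of ITGB3 from 4.10% to 2.46%. Summed over the 12 alpha subunits, RPKM was 154.9 and 149.3 in siNC and 126.5 and 124.5 in siPRR11. ITGA3 took 61.9% and 59.04% of it in siNC and 55.8% and 57.4% in siPRR11, and the mean share of ITGA1 went from 2.02% to 3.49%. For each of these shares the groups did not overlap, and the two-sided exact permutation p was 0.3333, the smallest that 2 against 2 libraries can give. In all, 20 shares were compared, and none could pass the threshold. Among the 20 the groups overlapped only for ITGB5, ITGA2, ITGA6 and ITGA10, so a lack of overlap was usual.

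**Figure D3:**
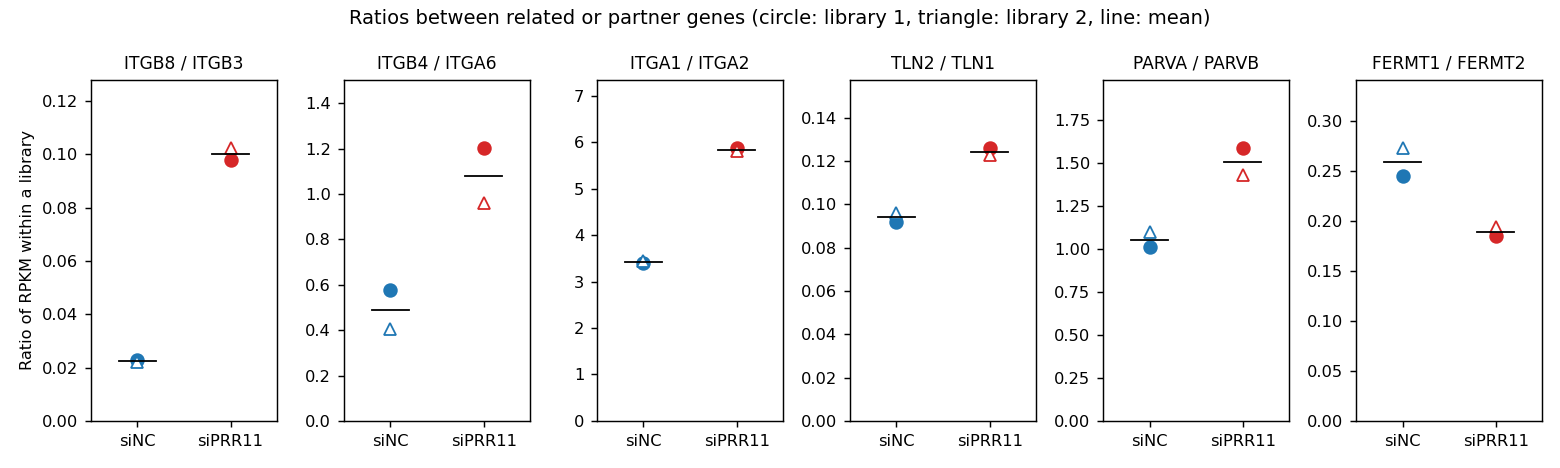
Ratio of RPKM between 6 pairs of related or partner genes in each siNC (blue) and siPRR11 (red) library, each panel on its own linear axis from 0. Circles are library 1, triangles library 2 and lines the mean of 2. The ratio of ITGB8 to ITGB3 is 4.48-fold higher in siPRR11 and that of ITGB4 to ITGA6 is 2.20-fold higher, whereas that of FERMT1 to FERMT2 is lower, at 0.731-fold. The ratios were chosen after values were seen, and none could have an exact permutation p under 0.3333.

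Among the 18 adaptors, 2 rose, 2 fell and 14 did not pass. The share that passed was 22.2%, beside 16.7% of all genes tested. Of the 17 adaptors whose average log2 CPM reached 4, 3 passed, beside 26.9% of all genes at that level. Of the talins, which bind the beta tail and activate integrins, 1 rose. TLN2 was at 81.0 and 81.5 CPM in siNC and at 105.4 and 101.1 CPM in siPRR11 (0.35, SE 0.0734, adjusted p = 0.00763, edgeR's quasi-likelihood test). TLN1, far more abundant per length, was at 551 and 529.6 CPM and at 523 and 515 CPM (-0.06, 95% interval -0.21 to 0.09). The RPKM ratio of TLN2 to TLN1 went from 0.0918 and 0.0962 to 0.126 and 0.123, 1.32-fold higher. The TLN2 call was lost without siPRR11 replicate 1 (adjusted p = 0.0883, edgeR).

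Of the parvins, actin-binding partners of ILK, 1 rose. PARVA was at 33.5 and 33.9 CPM in siNC and at 43.7 and 41.5 CPM in siPRR11 (0.34, SE 0.0818, adjusted p = 0.0155, edgeR's quasi-likelihood test). PARVB was at 29.6 and 27.5 CPM and at 24.6 and 25.9 CPM and did not pass (-0.18, adjusted p = 0.201, edgeR). The PARVA call was lost without either siPRR11 library (adjusted p = 0.171 and 0.0604, edgeR). In RPKM the ratio of PARVA to PARVB went from 1.01 and 1.10 to 1.59 and 1.43. ILK, the scaffold of this complex, was at 65.4 and 55.2 CPM and at 71.1 and 68.0 CPM (0.21, adjusted p = 0.15, edgeR). However, 68.1% of its exonic bases overlap TAF10 on the opposite strand. ILK had 5344 and 3199 reads in siNC and 6703 and 5817 in siPRR11. TAF10 had 5042 and 3091 in siNC and 6439 and 5621 in siPRR11, with a log2 fold change of 0.22. Whether the same reads were counted for both genes was not tested, so the ILK values may not be its own. LIMS1, which encodes PINCH1, had the lowest adjusted p of the genes that did not pass (-0.30, adjusted p = 0.0707, edgeR). LIMS1 passed under 5 of 11 alternatives, among them DESeq2 (adjusted p = 0.0492) and edgeR without siNC replicate 1 (-0.45) or siPRR11 replicate 2 (-0.40), and was at -0.14 without siNC replicate 2. Its near copies LIMS3 and LIMS4 had at most 140 reads in any library, against at least 6202 for LIMS1.

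Zyxin and a kindlin fell. ZYX, an actin regulator recruited to adhesions under tension, was at 63.6 and 61.5 CPM in siNC and at 46.0 and 45.9 CPM in siPRR11 (-0.45, SE 0.0767, adjusted p = 0.00232, edgeR's quasi-likelihood test). FERMT1, the epithelial kindlin-1, was at 8.12 and 9.21 CPM in siNC and at 6.65 and 6.59 CPM in siPRR11 (-0.39, SE 0.120, adjusted p = 0.0477, edgeR). ZYX passed under every alternative run, whereas FERMT1 lost its call under 7 of 11. These were DESeq2 (adjusted p = 0.0602), a floor of 10 counts per library (0.0502, edgeR), both limma fits, and the fits without siNC replicate 2 or either siPRR11 library. FERMT2, which encodes the widely expressed kindlin-2, was at 52.7 and 53.6 CPM and at 57.2 and 54.1 CPM (0.07, 95% interval -0.10 to 0.24).

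The actin crosslinkers and the kinases did not pass. ACTN1 was at 1069 and 988 CPM in siNC and at 1057 and 997 CPM in siPRR11, a log2 fold change of 0.00 with a 95% interval of -0.17 to 0.16. ACTN4 was at 1677 and 1543 CPM and at 1435 and 1394 CPM (-0.19, adjusted p = 0.107, edgeR's quasi-likelihood test), with no overlap between the groups. PTK2, focal adhesion kinase, was at 231.7 and 234.7 CPM and at 214 and 219.6 CPM (-0.11, interval -0.26 to 0.05). The intervals of the scaffold PXN (-0.19 to 0.16), VCL (-0.28 to 0.11), SRC (-0.32 to 0.07) and the tensin TNS3 (-0.25 to 0.22) also covered 0, and that of BCAR1, which encodes p130Cas, ran from 0.00 to 0.34. TNS1 differed most between the siNC libraries among the adaptors, at 40.1 and 28.3 CPM in siNC and 35.7 and 28.4 CPM in siPRR11. The remaining alpha and beta chains that did not pass, ITGA5, ITGA7, ITGA9, ITGA10, ITGA11, ITGAE and ITGB7, had log2 fold changes from -0.13 to 0.44, and ITGA9 and ITGA10 had at most 0.393 CPM in any library. Of the exonic bases of ITGB7, 42.1% overlap ZNF740 on the opposite strand. Over the 24 genes that did not pass, log2 fold changes ran from -0.31 to 0.44.

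**Figure D4:**
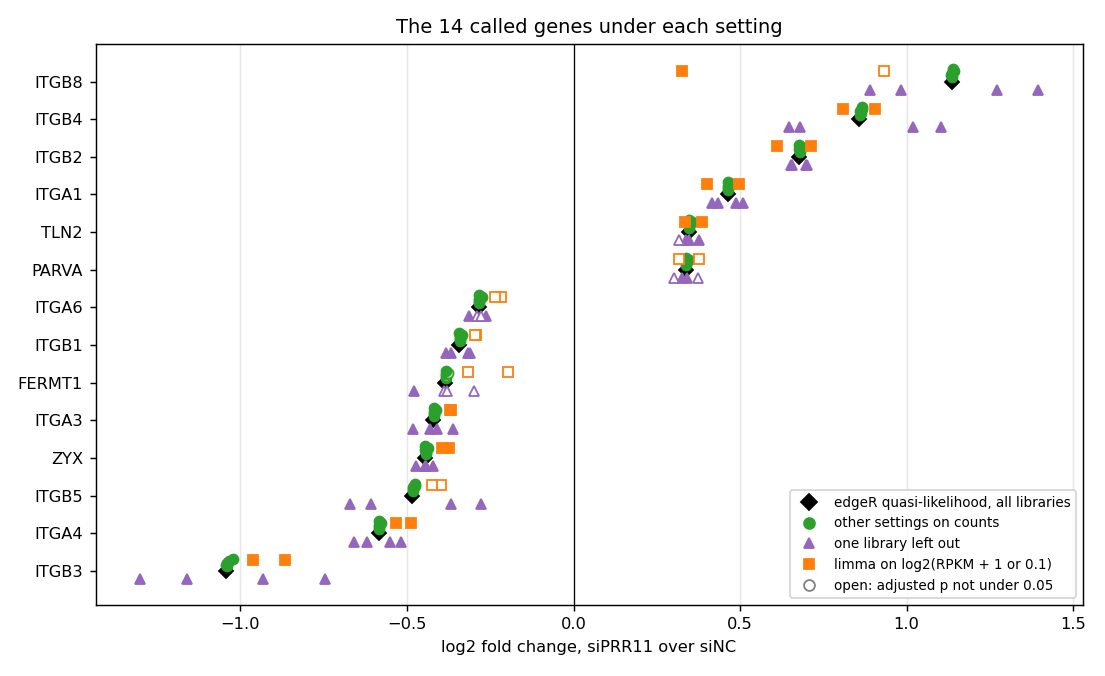
Log2 fold change of the 14 genes that passed, under edgeR's quasi-likelihood test on all libraries, other settings on counts, 1 library left out and limma on log2 RPKM. Open symbols did not pass an adjusted p of 0.05. No gene changes direction, and FERMT1, ITGA6 and PARVA have the most open symbols, while ITGB1 and ITGB5 are open under both limma fits.

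The integrin ligands outside collagens and laminins held 25 genes, of which 9 passed, 4 higher and 5 lower (36%, beside 16.7% of all genes, with a median log2 fold change of 0.07). A list of 60 other adhesion proteins had 58 tested, of which 17 passed, 5 higher and 12 lower (29.3%, median -0.05), where genes with an average log2 CPM from 4 upward passed in 26.9%. ITGAM was the single gene to pass of 3 tested among 5 platelet and leukocyte alpha subunits. Among the genes of these lists that passed, SPP1, which encodes osteopontin, a ligand of alphavbeta3, had the largest fall. It went from 754.5 and 794.3 CPM to 482 and 527 CPM (-0.62, adjusted p = 0.000298, edgeR's quasi-likelihood test). The alpha8beta1 ligand NPNT fell as well, from 194.9 and 214.3 CPM to 143.5 and 153.8 CPM (-0.46, adjusted p = 0.00216, edgeR). MFGE8, whose protein binds alphavbeta3 and alphavbeta5, rose from 11.89 and 12.02 CPM to 22.4 and 17.8 CPM (0.75, adjusted p = 0.00148, edgeR). ADAM15, a disintegrin metalloprotease, rose from 17.6 and 13.7 CPM to 27.4 and 26.6 CPM (0.79, adjusted p = 0.000984, edgeR). SPP1 and ITGB3 thus both fell, whereas MFGE8 rose. Of the other ligands that passed, EDIL3 (-0.42), FN1 (-0.29) and THBS1 (-0.24) fell, and CCN2 (0.41) and CDH1, given below, rose. VTN, which encodes vitronectin, did not pass (0.08).

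Of the signaling genes around adhesions, PTK2B, the PYK2 kinase related to focal adhesion kinase, rose from 20.2 and 19.2 CPM to 32.0 and 32.8 CPM (0.71, adjusted p = 0.000315, edgeR's quasi-likelihood test). FHL2, a LIM protein that binds integrin tails, rose from 25.8 and 26.6 CPM to 45.0 and 37.7 CPM (0.66, adjusted p = 0.00106, edgeR). CDH1, which encodes E-cadherin and belongs to the list of ligands, rose from 25.9 and 22.9 CPM to 35.2 and 36.1 CPM (0.54, adjusted p = 0.0021, edgeR). All 3 of these genes, named because they passed, were higher in both siPRR11 libraries than in either siNC library. The groups did not overlap for 58.4% of all genes tested. The SRC-family kinase FYN fell from 4.11 and 4.36 CPM to 2.80 and 2.76 CPM (-0.61, adjusted p = 0.017, edgeR). DIAPH1, an actin-nucleating formin, fell from 140.3 and 140.4 CPM to 104.7 and 96.3 CPM (-0.48, adjusted p = 0.00137, edgeR). APBB1IP, which encodes the talin recruiter RIAM, fell from 87.6 and 94.1 CPM to 65.7 and 64.9 CPM (-0.48, adjusted p = 0.00156, edgeR).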

How the data were processed

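RNA-seq of 4 ACHN libraries (2 siNC, 2 siPRR11) was analysed, grouped by the labels. The authors trimmed reads with Trimmomatic 0.36, aligned them to GRCh38 and counted them with featureCounts of Subread 1.5.1, per the labels and the methods. They deposited raw counts per gene with exonic length, and RPKM values, which equal count over length and column total within 3.08e-06%. The annotation release and use of strand are not given in the sources used here. All 4 columns of counts and all 4 of RPKM were used. Counts were compared by edgeR 4.0.16 (R 4.3.3) with TMM, filterByExpr, the quasi-likelihood test with group as the only term and Benjamini-Hochberg adjustment over 21630 genes, at 0.05. The fit was tested on simulated data. SE is the log2 fold change over the square root of F. Library totals (59003839 to 92612749) leave the spread between libraries, not counting error, to limit most genes. The limit for a count of 0 covers counting error only. The common biological coefficient of variation was 0.0856. Subunit shares and ratios used RPKM with a two-sided exact permutation test.

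Members and lists were chosen with earlier results of these data known, and the ratios were chosen after values were seen. All 4 values were given for members that passed, for those above 50 RPKM in siNC and for those set beside them, and other members by range. From the other lists the 5 largest rises and falls among genes that passed were named, with the remaining ligands that passed and VTN. ITGA8 and EFS were not analysed here, and a marker gene is not reported here. Alternatives were RLE factors, DESeq2 1.42.0, no filter, a minimum of 10 counts in each library, a block for the replicate number, limma 3.58.1 with a variance trend on log2(RPKM + 1) and log2(RPKM + 0.1), raw counts in place of RPKM for shares, and each library left out.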

Additional observations from a re-analysis of the deposited data

How the results depend on the processing

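The 14 members that passed and PRR11 kept their direction under every alternative run. Of the members that did not pass, 9 changed sign. With limma at pseudocounts of 1 and 0.1 the log2 fold change was 0.0449 and 0.0454 for ACTN1, 0.0308 and 0.0355 for PXN, and 0.0345 and 0.0357 for TNS3. These limma fits used RPKM without TMM factors. The median log2 fold change of all genes was 0.0206 and 0.0447 under them, beside 0.00224 with edgeR on all libraries. With at least 10 counts the log2 fold change was 0.00546 for ACTN1. With 1 library left out it ran from -0.0628 to 0.0526 for ACTN1, -0.287 to 0.318 for ITGA9, -0.0945 to 1.56 for ITGA10, -0.167 to 0.416 for ITGA11, -0.149 to 0.0343 for ITGB6, -0.0457 to 0.0158 for PXN, -0.327 to 0.179 for TNS1, -0.163 to 0.145 for TNS3 and -0.212 to 0.0417 for VCL. All genes passing numbered 3622. They were 6988 with the replicate block, 1775 with limma at a pseudocount of 1 (1091 higher, 684 lower), 1878 at 0.1 (1152 higher, 726 lower), and 2172 to 4590 with 1 library left out, where the lone library is assumed to vary like the others. Of the 38 members 14 passed. They were 21 with the block, 9 and 8 with limma at 1 (5 higher, 4 lower) and 0.1 (4 higher, 4 lower), 10 to 16 with 1 library left out, 14 with RLE factors and with DESeq2, 16 with no filter and 13 with at least 10 counts. Adaptors passing went from 4 to 8 with the block, 2 with either limma fit and 1 without siPRR11 replicate 1. Genes of the other lists went from 27 to 42 with the block, 12 and 13 with limma, and 18 to 32 with 1 library left out. The cause was not tested. ITGA1, ITGA3, ITGA4, ITGB2, ITGB3, ITGB4 and ZYX passed under all 11 alternatives. ITGB8 lost its call at a pseudocount of 0.1 (limma, adjusted p = 0.0502). The labels share replicate numbers. With only 2 pairs, the correlation of deviations of same-numbered libraries, 0.482, cannot decide whether they were paired. The block leaves 1 residual degree of freedom. With raw counts in place of RPKM the ITGB1 share was 80.4% in siPRR11, and the ITGA3 share 64.6% in siNC and 60.0% in siPRR11. With 1 library left out these shares ran from 83.1% to 84.7% and 81.1% to 81.6% for ITGB1, and from 59.04% to 61.89% and 55.8% to 57.4% for ITGA3. The PRR11 log2 fold change, -1.48, ran from -1.54 to -1.41 with 1 library left out. Depth limited ITGA9 and ITGA10, whose intervals spanned more than 1 on the log2 scale.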
